A study of Homo sapiens with 34 samples.

Results

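LSD1, encoded by KDM1A, is a demethylase that removes methyl groups from mono- and dimethylated lysine 4 of histone H3, and it acts in complexes with CoREST scaffold proteins and histone deacetylases. The genes described here are KDM1A, the CoREST genes RCOR1, RCOR2 and RCOR3, the class I deacetylase genes HDAC1, HDAC2 and HDAC3, and the corepressor scaffold genes NCOR1 and SIN3A. They were chosen by name, not by any measured value, although with earlier results of these data known. They are 9 of 19962 protein-coding genes examined. The study is about the transcriptional corepressor RUNX1T1 in MYCN-driven neuroblastoma, and the question addressed here is how the chromatin of the genes for the corepressor machinery is marked, with and without RUNX1T1 knockdown.

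KELLY is an established neuroblastoma line in which MYCN is amplified, and the cells used held a lentiviral shRNA to RUNX1T1 that doxycycline switches on. The groups were DMSO and Doxycycline, both sampled at 72 h, with 3 chromatin immunoprecipitation libraries per treatment for each of H3K4me1, H3K4me2, H3K4me3, H3K27ac and H3K27me3. Both treatments carried the hairpin, and a doxycycline-treated line without it was not analysed here, so effects of the drug and of the hairpin cannot be told apart. The labels do not say whether the libraries of a group came from separate cultures, so the p-values measure the spread between these libraries only. Replicates 1 and 3 of a treatment had equal input read totals and may share an input.

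H3K4me3 marks active start sites, H3K4me2 lies at and around them, and H3K4me1 is typical of enhancers and of the flanks of promoters. H3K27ac accompanies active promoters and enhancers, and H3K27me3 is the mark of Polycomb repression. LSD1 and the deacetylases remove H3K4me1, H3K4me2 and H3K27ac when a corepressor brings them to chromatin. A peak is a stretch that the authors' caller, MACS2, found enriched over an input library. The value given as fold enrichment is its ratio of ChIP signal to the local input level, taken at the summit of the narrow peaks of H3K4me2 and H3K4me3 and as the mean over the broad peaks of the other 3 marks, so levels were not compared between marks.

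The 30 peak lists held 23801 to 157087 peaks. The calling depth (the smaller of ChIP and input) was 71884088 to 81056810 reads in DMSO and 57002858 to 63437667 in Doxycycline, so that depth and treatment cannot be told apart. Differences are therefore given relative to the median gene of each list. On the uncentred scale the median gene moved by over 0.1 (log2) in some measures, by 0.14 for H3K4me1, 0.48 for H3K4me2 and 0.33 for H3K27ac in promoter fold enrichment, and by -0.18 for H3K4me1, -0.13 for H3K27ac and 0.59 for H3K27me3 in covered length. The H3K27me3 libraries had fragment length estimates of 105 to 280 bp. Promoters of the adrenergic neuroblastoma genes PHOX2A, HAND2, GATA3, ISL1, TH and DBH each carried H3K27ac in 6 of 6 libraries, and those of 7 immune, endothelial, epithelial and hepatic genes in 0 of 6. The promoter of RUNX1T1 itself carried H3K27ac in 6 of 6 libraries, which does not measure the knockdown, since a hairpin acts on the transcript.

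The promoters that the results turn on are shown first, as RefSeq gives them for GRCh38, as 300 bases around the start site, 5′ to 3′ along the gene. Capitals mark matches, on either strand, to CACGTG (an E-box that MYC proteins bind), CATCTG (an E-box), GGGCGG (a GC box) and CCAAT. KDM1A is shown because its promoter had the lowest mean H3K4me2 rank of the genes, RCOR1 because H3K4me1 was absent there, RCOR3 because its H3K27ac ranked highest, and HDAC2 because the surroundings of this gene gave the only difference called between treatments.
KDM1A (chr1:23019218-23019517, + strand): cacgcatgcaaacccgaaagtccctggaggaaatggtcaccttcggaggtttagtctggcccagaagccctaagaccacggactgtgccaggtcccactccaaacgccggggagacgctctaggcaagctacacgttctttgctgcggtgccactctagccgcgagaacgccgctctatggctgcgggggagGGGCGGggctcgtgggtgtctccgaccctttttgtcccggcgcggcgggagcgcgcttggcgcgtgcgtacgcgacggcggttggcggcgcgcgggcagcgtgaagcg
RCOR1 (chr14:102592399-102592698, + strand): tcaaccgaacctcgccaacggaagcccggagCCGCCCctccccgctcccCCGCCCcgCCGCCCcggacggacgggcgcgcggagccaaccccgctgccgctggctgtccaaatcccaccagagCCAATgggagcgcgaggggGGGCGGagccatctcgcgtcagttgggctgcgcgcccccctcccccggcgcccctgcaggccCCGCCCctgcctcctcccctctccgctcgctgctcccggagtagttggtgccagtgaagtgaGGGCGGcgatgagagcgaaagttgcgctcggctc
RCOR3 (chr1:211259116-211259415, + strand): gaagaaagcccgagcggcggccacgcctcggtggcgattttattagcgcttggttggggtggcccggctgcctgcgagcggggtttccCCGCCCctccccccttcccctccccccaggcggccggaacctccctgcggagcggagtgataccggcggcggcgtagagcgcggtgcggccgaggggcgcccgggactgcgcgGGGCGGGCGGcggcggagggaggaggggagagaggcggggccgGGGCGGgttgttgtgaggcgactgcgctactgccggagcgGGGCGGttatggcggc
HDAC2 (chr6:113971099-113971398, - strand): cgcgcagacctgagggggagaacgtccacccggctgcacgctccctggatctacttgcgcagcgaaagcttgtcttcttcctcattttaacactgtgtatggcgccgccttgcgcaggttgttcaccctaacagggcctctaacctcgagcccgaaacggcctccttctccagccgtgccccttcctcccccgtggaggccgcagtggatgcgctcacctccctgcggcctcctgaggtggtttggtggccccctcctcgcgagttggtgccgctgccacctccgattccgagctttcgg

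The table of promoters held 11 entries for 8 of the 9 genes. Their median GC content was 72.7%, with 28 CpG dinucleotides, against 58.7% and 14 over all 35116 entries of the same length. GGGCGG was found in 8 of 11 entries, against 45.0% of all entries, and CCAAT in 6 of 11, against 34.6%. CATCTG occurred in 1 entry, that of HDAC1, against 14.7%, and CACGTG in 0 of 11, against 7.26%. The HDAC2 window held none of the 4 motifs and had a GC content of 64.0%. These are matches of letters within 300 bases and say nothing of whether a factor binds.

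All 9 genes had an active promoter by these marks in every library. H3K4me2, H3K4me3 and H3K27ac each had a peak within 1 kb of a start site in 6 of 6 libraries for 9 of 9 genes, which held for 71.8%, 71.9% and 64.2% of protein-coding genes, and for all of the 3 marks together in 12248 genes (61.4%). H3K4me1 was present in 6 of 6 libraries for 8 of 9 genes, against 61.4% of all genes, and in 0 of 6 for RCOR1, against 17.6%. H3K27me3 was absent from the promoters of 8 of 9 genes in every library, as from 64.4% of all promoters (20.1% carried it in 6 of 6). Among the 12248 genes with the 3 marks together it was absent from 81.4%. The exception was a peak of 0.238 kb in DMSO replicate 3 at a start site of RCOR3 that lies 19.87 kb inside the gene. No promoter of the 9 genes separated the treatments, that is, had a peak in 3 of 3 libraries of one treatment and 0 of 3 of the other. Of all promoters, peaks present in DMSO alone were found in 0.19% for H3K4me1, 0% for H3K4me2, 0.0751% for H3K4me3, 0.22% for H3K27ac and 0% for H3K27me3. Peaks present in Doxycycline alone were found in 0.125%, 0.0301%, 0.0551%, 0.11% and 0.19% in the same order. With peaks held to q 0.001 or less, the number of genes with H3K4me1 in every library of a treatment was 6 in DMSO and 3 in Doxycycline, instead of 8 and 8, whereas the counts for H3K4me2, H3K4me3 and H3K27ac stayed at 9 of 9.

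**Figure D1:**
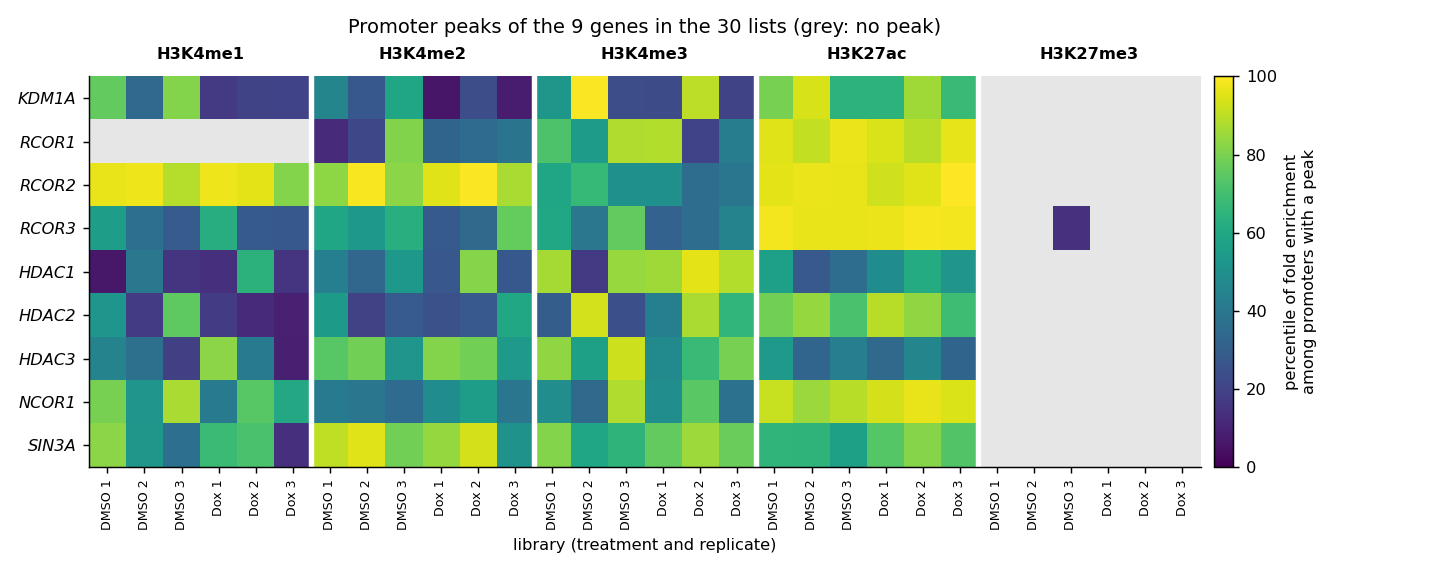
Rank of each gene's promoter peak by fold enrichment (colour, percentile among all promoters with a peak in that list) for the 9 genes (rows) in the 30 libraries (columns, by mark, treatment and replicate); grey squares have no peak. RCOR1 lacks H3K4me1 in all 6 libraries, H3K27me3 is absent but for 1 RCOR3 square, and the H3K27ac ranks of RCOR1, RCOR2, RCOR3 and NCOR1 lie above 85% in every library.

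H3K4me3 lay mostly at the canonical start sites. The 9 genes have 46 separate promoter windows when the start sites of all annotated transcripts are used, and of the 37 windows without the canonical start, H3K4me3 was found in 6 of 6 libraries at 2 and in 0 of 6 at 34. H3K27ac was found in 6 of 6 libraries at 4 of the 37, and H3K4me1 and H3K4me2 at 3 each. The 2 windows with H3K4me3 lie upstream of the canonical start, at -2.65 kb in NCOR1 and -3.74 kb in SIN3A. Protein-coding neighbours share promoters with 3 of the genes. TEX46 starts 368 bp from the KDM1A start on the opposite strand, RELL2 starts 101 bp from that of HDAC3 on the opposite strand, and PIGL starts within 1 kb of another NCOR1 start, 1657 bp from the canonical one. The antisense RNA HDAC2-AS2 starts 347 bp from HDAC2. Peaks at these promoters cannot be assigned to one gene of the pair.

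KDM1A (chr1:23019443-23083689) had an H3K4me3 peak that began at -0.938 to -0.834 kb from the start and ended at 2.41 to 2.63 kb. Its H3K4me3 fold enrichment was 33.8, 66.3 and 16.1 in DMSO and 26.8, 52.9 and 15.1 in Doxycycline. Replicate 2 was the highest and replicate 3 the lowest in both treatments, and the groups overlap, although the value was lower in Doxycycline in 3 of 3 pairs of the same replicate number. The H3K4me2 fold enrichment was 12.3, 7.27 and 6.71 in DMSO and 7.07, 7.04 and 6.21 in Doxycycline. These groups overlap before centring. Relative to the median promoter they did not, and the difference was -0.80 on the log2 scale (SE 0.26). It had an adjusted p of 0.36 in limma, so it was not called. Part of it came from centring, since the median promoter of this mark rose by 0.48 (log2). DMSO replicate 1 stood above the other 5 libraries before centring, and leaving out 1 library gave differences from -1.06 to -0.47, the latter without Doxycycline replicate 1. Its H3K4me1 fold enrichment, with a difference of -0.33 (SE 0.12, adjusted p = 0.39 in limma), was the other promoter measure of KDM1A whose groups did not overlap after centring. Before centring they overlapped, at 3.59, 2.49 and 2.84 in DMSO and 2.68, 2.53 and 2.50 in Doxycycline. The median promoter of H3K4me1 rose by 0.14 (log2). The H3K4me1 percentile of KDM1A among promoters was 75.9, 33.98 and 81.3 in DMSO and 17.0, 20.3 and 20.1 in Doxycycline. The H3K4me1 peaks counted for KDM1A mostly lay at internal start sites: the canonical start had a peak in 2 DMSO libraries and 1 Doxycycline library, whereas a start 45.73 kb downstream had one in 6 of 6.

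RCOR1, RCOR2 and RCOR3 encode the CoREST scaffolds that hold LSD1 and a deacetylase together. RCOR2 (chr11:63911230-63917164), the shortest of the 9 genes with a body of 5.9 kb, had the widest domains of every active mark. Its H3K27ac peaks at the promoter summed to 16.4, 16.7 and 15.7 kb in DMSO and 16.7, 18.0 and 13.5 kb in Doxycycline, with overlapping groups, and covered 100% of the gene body in 5 libraries and 73.6% in Doxycycline replicate 3, where the domain was broken. The merged region (chr11:63904199-63922187) ran past the end of RCOR2 into the last part of MARK2, a kinase gene whose start sites lie outside it. The mean H3K27ac width of 16.1 kb lay at the 95.9th percentile of the 12822 genes with a promoter peak in 6 of 6 libraries, and that of H3K4me3, 6.69 kb, at the 97.9th of 14343. In H3K4me2 and H3K4me1 the RCOR2 widths, 7.19 to 13.2 and 12.9 to 15.0 kb, exceeded those of every other gene of the set in 6 of 6 libraries. The mean H3K4me1 width lay at the 95.8th percentile, but at the 87.3rd (4.67 kb) when the canonical start alone was used. There the widths of H3K27ac and H3K4me3 lay at percentiles of 98.1 and 99.2.

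RCOR3 (chr1:211258377-211316385) had a much narrower H3K27ac domain, 4.94, 5.86 and 6.64 kb in DMSO and 4.86, 4.79 and 4.79 kb in Doxycycline, but the highest mean H3K27ac rank. Its fold enrichment was 14.3, 11.8 and 8.22 in DMSO and 18.5, 15.8 and 10.6 in Doxycycline, at the 96.6th to 98.5th percentile of promoters in every library. It ranked above RCOR2 in 3 of 6 libraries, so that the first places are not separated. RCOR1 (chr14:102592649-102730561) stood next, between the 89.3rd and 96.9th percentile. RCOR1 was the member without H3K4me1 within 1 kb, which among genes with the other 3 active marks in every library was the case for 186 of 12248 (1.52%). The nearest H3K4me1 peak upstream of its start ended 1.10 to 1.35 kb away in the 6 libraries. Downstream it began 1.15 to 1.5 kb away in replicates 1 and 3 of both treatments, but 69.9 and 69.8 kb away in replicate 2 of DMSO and Doxycycline, so the gap was slightly wider than the window and flanked by the mark on at least the upstream side. RCOR3 too had no H3K4me1 peak within 1 kb of the canonical start in 6 of 6 libraries, and its promoter peaks lay at neighbouring starts.

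HDAC1, HDAC2 and HDAC3 encode the class I deacetylases of these complexes, HDAC3 being the partner of NCOR1. HDAC1 (chr1:32292083-32333635) had the narrowest H3K4me3 domain of the 9, 1.75, 1.80 and 1.65 kb in DMSO and 1.81, 1.74 and 1.74 kb in Doxycycline. It lay below HDAC3, the next narrowest with a mean of 2.94 kb, in 6 of 6 libraries, and at the 24.4th percentile of genes. Its H3K27ac rank, between the 27.9th and 61.7th percentile, and that of HDAC3, between the 32.2nd and 54.1st, were the lowest of the set, and both lay below SIN3A, the next, at the 56.9th to 81.8th. HDAC1 nevertheless had 6.38 to 8.29% of its body under H3K27ac. A stretch with further annotated start sites, 38.42 kb downstream, carried that mark in 6 of 6 libraries with H3K4me3 and H3K4me2 in 0 of 6. That stretch (chr1:32328480-32332536) lies near the 3′ end of the gene. In DMSO replicate 1 and in every Doxycycline library the H3K27ac peaks counted there also ran past the gene end. NCOR1 (chr17:16029065-16218185), the longest gene, had an H3K4me3 domain of 4.56 to 4.95 kb over 2 neighbouring start windows, and SIN3A (chr15:75369379-75455842), the scaffold of the SIN3 complex, of 6.09 to 6.93 kb over 2 windows, at the 97.7th percentile of genes. The H3K27ac fold enrichment of SIN3A was 8.26, 7.34 and 5.16 in DMSO and 12.2, 10.9 and 7.16 in Doxycycline, and that of NCOR1 11.6, 9.32 and 7.10 in DMSO and 16.6, 14.6 and 9.33 in Doxycycline. The groups overlap in both genes before centring. These uncentred values were higher in Doxycycline in every pair of the same replicate number for all 9 genes, and the median promoter itself rose by 0.33 (log2). Relative to that median, SIN3A and NCOR1 were still higher in 3 of 3 pairs, but neither was called (adjusted p = 0.46 and 0.51 in limma).

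**Figure D2:**
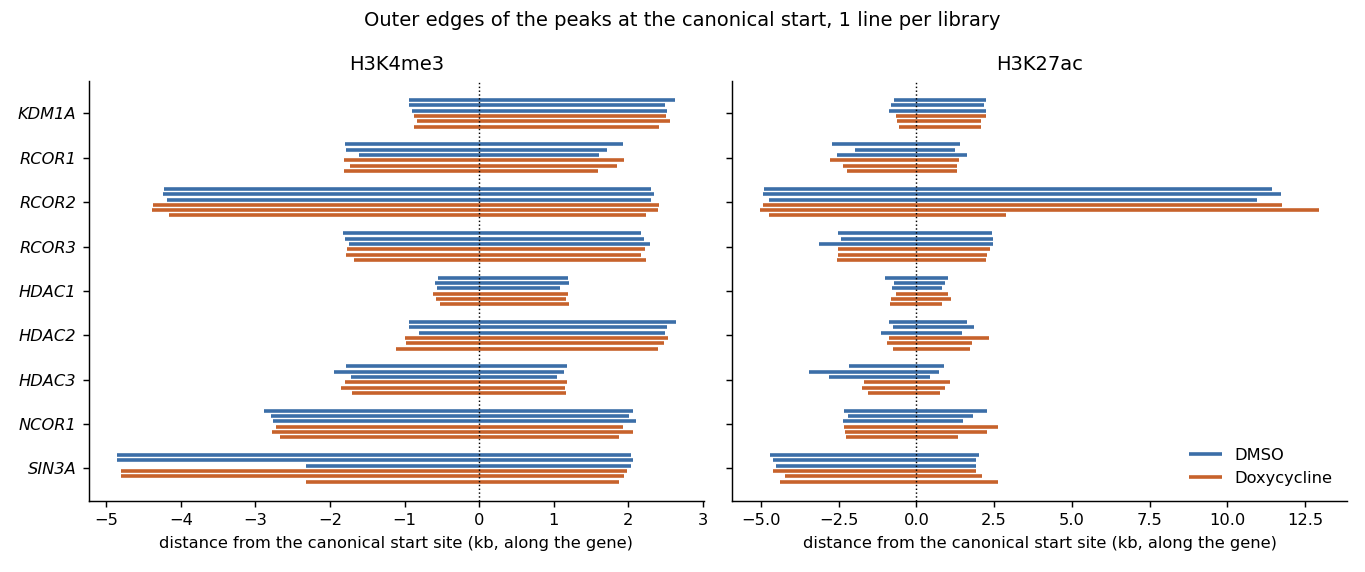
Outer edges of the peaks within 1 kb of the canonical start site for H3K4me3 (left) and H3K27ac (right), in kb along each gene with 0 at the start, 1 line per library coloured by treatment. HDAC1 is the narrowest in H3K4me3, and the RCOR2 H3K27ac peak at the start reaches past the end of the 5.9 kb gene except in Doxycycline replicate 3. There it ends at 2.90 kb, and a further H3K27ac peak in the gene body, of 2 in all, is not drawn.

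In H3K4me3, width fell in the order RCOR2, SIN3A, NCOR1, RCOR3, RCOR1, HDAC2, KDM1A, HDAC3 and HDAC1. Neighbours in that order held their order in 6 of 6 libraries except RCOR2 above SIN3A (5 of 6), RCOR1 above HDAC2 (4 of 6) and HDAC2 above KDM1A (5 of 6). In H3K4me3 fold enrichment the gene with the highest mean rank, HDAC1, ran from the 17.2nd to the 95.9th percentile over 6 libraries, and KDM1A from the 20.4th to the 99.2nd.

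By the likeness of promoter rank over the 24 lists of the active marks, the genes nearest to KDM1A were MACROH2A2, ATAD2B and RRAGA, with mean absolute differences of 7.76, 8.09 and 8.92 percentile points, against a median of 18.7 over the 9643 genes with a peak in all 24. The nearest to RCOR3 were NUDCD2, TDRD3 and ZFR, at 5.14, 6.73 and 6.73 points, against a median of 14.4. These lists share inputs and cells, so the values are a description.

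To determine whether the marks on these genes changed with doxycycline, 3 measures were compared by limma over all genes: the promoter fold enrichment, the width of the peaks at the promoter, and the length under peaks in the gene body extended by 50 kb to each side, called the covered length. Over the 5 marks, 1 value of the 9 genes was called at an adjusted p under 0.05, the H3K27ac covered length around HDAC2. At the promoters, 0 of 9 genes were called in H3K27ac, against 1.55% of genes for fold enrichment and 0.281% for width, and 0 of 9 in H3K4me3, against 0.0767% and 0.411%. In H3K4me2, 0 of 9 were called in either measure, as of all genes (0%), and in H3K4me1 0 of the 8 tested, against 0.0163% and 0.0978%. At an unadjusted p under 0.05, 2 of 8 genes passed in H3K4me1 fold enrichment (8.54% of all genes), 1 of 9 in H3K4me2 fold enrichment (9.24%), and 0 in H3K4me1 width (7.47%), H3K4me2 width (3.82%), H3K4me3 fold enrichment and width (13.9% and 11.8%) and H3K27ac fold enrichment and width (15.9% and 9.38%). With the replicate number as a block the percentages called became 3.35% and 0% for H3K27ac fold enrichment and width 0% and 0.251% for those of H3K4me3, 0.0163% and 0% for those of H3K4me1, and 0% for both of H3K4me2, and still 0 of the 9 genes were called at the promoter.

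**Figure D3:**
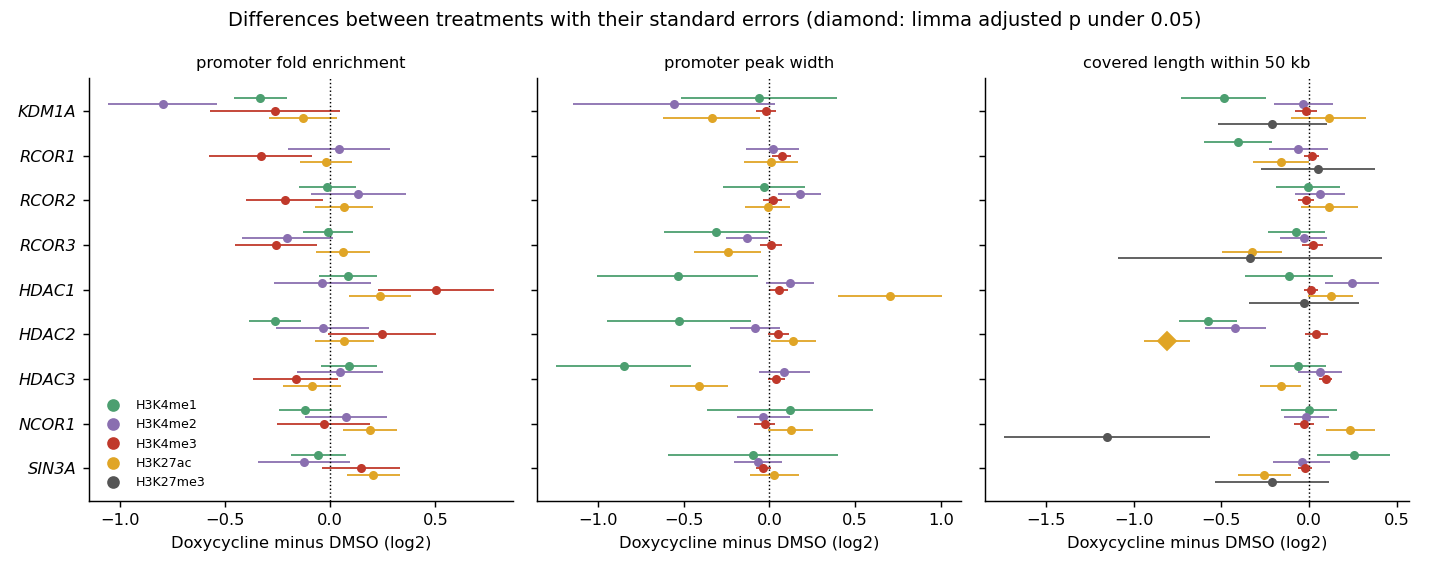
Doxycycline minus DMSO (log2, relative to the median gene of each list) with its standard error for the 9 genes (rows) in promoter fold enrichment, promoter width and covered length, coloured by mark, n = 3 libraries per treatment. The HDAC2 H3K27ac covered length, at -0.81, is the only diamond, and H3K4me3 widths lie close to 0 for all 9 genes.

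Members whose groups of 3 did not overlap at the promoter, relative to the median gene of each list, were few. The share beside each named gene is of genes that differed in the same direction. In either direction it was 13.3% for H3K4me1, 14.8% for H3K4me2, 18.5% for H3K4me3 and 20.6% for H3K27ac fold enrichment, and 16.2% for H3K27ac width. In H3K4me1 fold enrichment they were KDM1A and HDAC2, both lower, against 6.73% of genes, HDAC2 with a difference of -0.26 (SE 0.12, adjusted p = 0.56 in limma). In H3K4me2 fold enrichment it was KDM1A alone, against 7.24%. In H3K4me3 fold enrichment RCOR2 was lower, by -0.22 (SE 0.18, adjusted p = 0.65), against 8.01%. In H3K27ac fold enrichment SIN3A was higher, by 0.21 (SE 0.13, adjusted p = 0.46), against 8.94%, and in H3K27ac width HDAC3 was lower, by -0.41 (SE 0.17, adjusted p = 0.53), against 6.98%. In the widths of H3K4me1, H3K4me2 and H3K4me3, 0 genes of the set had groups that did not overlap, against 13.3%, 9.93% and 18.8% of all genes in either direction. The HDAC3 H3K27ac widths were 3.06, 4.2 and 3.24 kb in DMSO and 2.78, 2.65 and 2.32 kb in Doxycycline. Differences that were the largest of a mark and width, -0.85 for HDAC3 in H3K4me1 (SE 0.39, adjusted p = 0.68) and -0.56 for KDM1A in H3K4me2 (SE 0.59, adjusted p = 0.97), came with overlapping groups. The remaining largest differences were 0.50 for HDAC1 in H3K4me3 fold enrichment (SE 0.28, adjusted p = 0.45), 0.24 for HDAC1 in H3K27ac fold enrichment (SE 0.15, adjusted p = 0.46), 0.07 for RCOR1 in H3K4me3 width (SE 0.05, adjusted p = 0.65) and 0.70 for HDAC1 in H3K27ac width (SE 0.30, adjusted p = 0.55). The last was -0.0101 at the canonical start alone, without the stretch 38.42 kb downstream, where some peaks ran past the gene end. Several of these values rested on single libraries. With 1 library left out, the HDAC1 differences ran from 0.11 (without DMSO replicate 2) to 0.70 in H3K4me3 fold enrichment, from 0.11 (without DMSO replicate 2) to 0.36 (without DMSO replicate 1) in H3K27ac fold enrichment, and from 0.44 (without DMSO replicate 3) to 1.03 in H3K27ac width. The HDAC3 difference in H3K4me1 width ran from -1.19 to -0.47 (without DMSO replicate 3), and that in H3K27ac width from -0.57 to -0.27 (without DMSO replicate 2). The KDM1A difference in H3K4me2 width ran from -1.13 (without DMSO replicate 3) to -0.081 (without Doxycycline replicate 3), and was also moved by over 1.5 times without DMSO replicate 1 or 2 or Doxycycline replicate 2. The HDAC2 difference in H3K4me1 fold enrichment ran from -0.36 to -0.17 (without DMSO replicate 3), and the RCOR1 difference in H3K4me3 width from 0.033 (without DMSO replicate 3) to 0.11 (without DMSO replicate 1).

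Around HDAC2 (chr6:113933028-114011308) the length under H3K27ac peaks in the body and 50 kb to each side was 11.8, 9.43 and 9.12 kb in DMSO and 5.04, 4.36 and 4.86 kb in Doxycycline. Every DMSO library was above every Doxycycline library. On the log2 scale with 1000 bases added, relative to the median gene, it fell by 0.81 (SE 0.13), with an adjusted p of 0.018 in limma and 0.021 with the replicate number as a block. Of 17264 genes tested, 2.46% were called lower and 1.23% higher. Groups did not overlap with lower Doxycycline values for 9.34%, and in either direction for 26.8%. The percentage called in either direction was 3.69%, and 8.01% with the block. The H3K27ac lists were longer in DMSO (55153 to 71603 peaks) than in Doxycycline (48171 to 60292), and with the 6 lists set to equal length the difference was -0.83 with an adjusted p of 0.016.

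The call was sensitive to the libraries and to the window. Without 1 library at a time the difference ran from -0.91 to -0.76, and the adjusted p passed 0.05 when DMSO replicate 1 (0.091), DMSO replicate 2 (0.066), Doxycycline replicate 1 (0.056) or Doxycycline replicate 2 (0.094) was left out. With the body extended by 10 kb only, chosen after seeing the data, the difference was -0.21 (adjusted p = 0.64), and over the gene body alone -0.051 (adjusted p = 0.91), so the difference lay mostly in the stretch between 10 and 50 kb from the body.

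**Figure D4:**
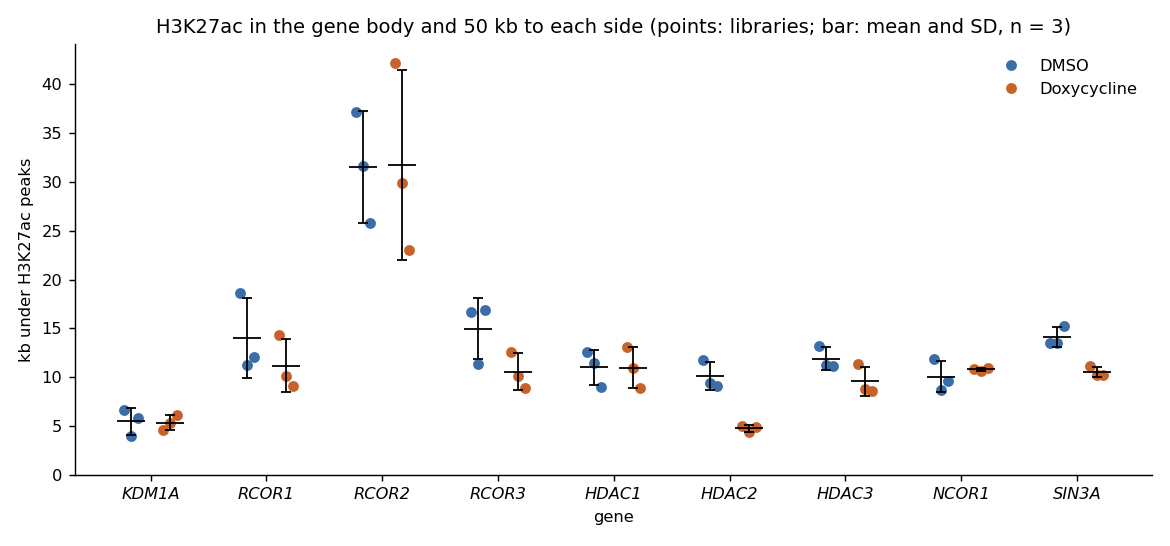
Length under H3K27ac peaks (kb) in the gene body and 50 kb to each side for the 9 genes, points being libraries and bars the mean and SD of 3. The 3 Doxycycline libraries of HDAC2 (4.36 to 5.04 kb) lie below its 3 DMSO libraries (9.12 to 11.8 kb), and RCOR2 has the longest coverage in both treatments.

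The HDAC2 promoter kept its H3K27ac, in contrast to its surroundings. Its H3K27ac peaks measured 2.52, 2.60 and 2.59 kb in DMSO and 3.23, 2.73 and 2.49 kb in Doxycycline, and the fold enrichment was 9.52, 9.17 and 5.84 in DMSO and 15.1, 11.1 and 6.93 in Doxycycline, overlapping in both. Distal H3K27ac regions were those over 1 kb from every protein-coding start, counted in lists that were shorter in Doxycycline. DMSO libraries had 5 to 8 near RCOR1, 3 to 7 near RCOR3 and 1 to 5 near SIN3A, and Doxycycline libraries 2 to 5, 1 to 3 and 0. Near RCOR2, HDAC1 and HDAC3 the counts were 1 to 6, 1 to 2 and 0 to 1 in DMSO and 1 to 4, 0 to 1 and 0 in Doxycycline. Near NCOR1 and KDM1A the counts were not lower, at 3 to 4 and 1 to 2 in DMSO and 3 to 6 and 1 to 4 in Doxycycline. No count over all genes is given beside these. Near HDAC2, DMSO libraries held 4 to 6 such regions and Doxycycline libraries 1 to 3. The strongest, found in 6 of 6 libraries, was chr6:114056077-114063495, centred at -88.6 kb from the canonical start (negative values are upstream), overlapping the 3′ part of the neighbouring gene HS3ST5 (chr6:114055596-114343023), which makes a heparan sulfate sulfotransferase, and the antisense transcript HDAC2-AS2. It covered 5.23, 5.14 and 2.91 kb of the window in DMSO and 1.80, 1.63 and 1.12 kb in Doxycycline, and its fold enrichment was 5.23, 3.91 and 4.06 in DMSO and 3.37, 2.71 and 2.65 in Doxycycline. Neither value overlapped between treatments. The region is part of the covered length called above, so this is not a separate result. The share of all H3K27ac regions without overlap was not counted. Its edge lies 44769 bp from the nearest annotated HDAC2 start, a non-canonical one, which is the nearest protein-coding start although the region overlaps HS3ST5.

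The other distal regions of HDAC2 were weak. A region at 50.4 kb (chr6:113919841-113921625) had a peak in 3 DMSO libraries and 1 Doxycycline library, and that at -67.3 kb (chr6:114037971-114038981) in 2 and 0. The region at -24.5 kb (chr6:113995158-113996228), within transcripts of HDAC2 and HDAC2-AS2, was the only H3K27ac region near HDAC2 that separated the treatments, with fold enrichments of 2.55, 2.72 and 2.34 in DMSO and no peak in Doxycycline. Its −log10 q-values were 2.16 to 3.95, close to the calling limit, and the region no longer separated the treatments with peaks of q 0.001 or less. H3K4me1 was found at the same place in 6 of 6 libraries, with fold enrichments of 3.13, 2.48 and 2.77 in DMSO and 2.56, 2.32 and 2.85 in Doxycycline, so H3K4me1 did not separate the treatments there. The central 300 bases of this region in hg38 are shown, with the same motifs in capitals, because it is the stretch where H3K27ac was called in DMSO alone.
HDAC2 distal region (chr6:113995544-113995843, + strand): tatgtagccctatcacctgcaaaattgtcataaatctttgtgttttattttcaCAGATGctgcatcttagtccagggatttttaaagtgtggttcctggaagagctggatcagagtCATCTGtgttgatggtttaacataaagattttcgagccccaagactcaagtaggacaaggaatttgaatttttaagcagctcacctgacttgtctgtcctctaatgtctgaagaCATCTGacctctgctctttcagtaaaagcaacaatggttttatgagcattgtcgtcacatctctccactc
It held CATCTG, or its reverse complement, 3 times. Of the central 300 bases of 79979 distal H3K27ac regions, 23.3% held at least 1 match and 0.305% held 3 or more. The cut of 3 is the count of this region itself and was applied to CATCTG alone. The region was also picked because it separated the treatments, so these shares do not measure how unusual it is. Its GC content was 40.0%, against a median of 46.7%.

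H3K4me1 and H3K4me2 moved in the same direction around HDAC2 without being called. The H3K4me1 covered length was 15.98, 12.6 and 13.2 kb in DMSO and 10.9, 6.89 and 6.22 kb in Doxycycline, a difference of -0.58 (SE 0.16, adjusted p = 0.30 in limma). The H3K4me2 covered length was 7.57, 3.28 and 2.77 kb in DMSO and 3.19, 2.84 and 3.15 kb in Doxycycline, -0.42 (SE 0.18, adjusted p = 0.91). The H3K4me2 difference ran from -0.54 to -0.27 with 1 library left out, the latter without DMSO replicate 1, the one library that stood high. Before centring the H3K4me2 groups overlapped, with an exact permutation p of 0.5. The groups did not overlap relative to the median gene in either mark. This held with lower Doxycycline values for 7.1% and 4.44% of genes, and in either direction for 16.2% and 11.4%. The H3K4me3 covered length was the promoter peak alone, at 3.31 to 3.58 kb in all 6 libraries.

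**Figure D5:**
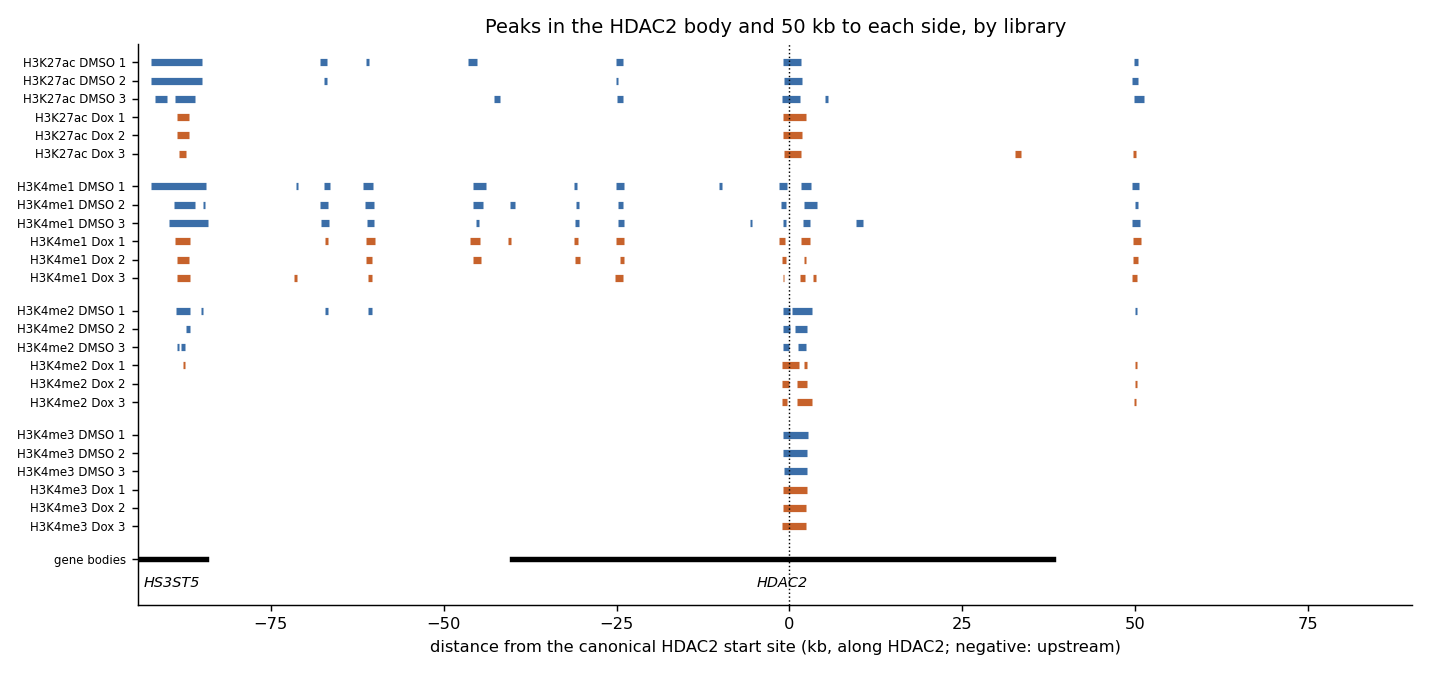
Peaks of 4 marks (rows are libraries, blue for DMSO and orange for Doxycycline) by distance in kb from the canonical HDAC2 start, with the HDAC2 and HS3ST5 bodies as black bars. H3K4me3 and H3K27ac peaks at 0 are present in all 6 libraries, whereas the H3K27ac peaks at the left edge, in HS3ST5, and at -24.5 kb are shorter or missing in Doxycycline.

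Of the other 8 genes, 0 were called in H3K27ac covered length. At an unadjusted p under 0.05, HDAC2 alone passed, against 19.7% of all genes. HDAC3 had 13.2, 11.3 and 11.2 kb in DMSO and 11.3, 8.81 and 8.56 kb in Doxycycline, and its groups did not overlap after centring, with a difference of -0.16 (SE 0.12, adjusted p = 0.47), which turned to 0.26 over the gene body alone. SIN3A had 13.5, 13.5 and 15.3 kb in DMSO and 11.1, 10.3 and 10.2 kb in Doxycycline, which did not overlap before centring but did after it. The largest coverage was that of RCOR2, with 37.2, 31.6 and 25.7 kb in DMSO and 42.2, 29.9 and 23.1 kb in Doxycycline. In the other marks 0 of 9 genes were called in covered length for H3K4me1 (0.0107% of all genes, and 0% with the block), H3K4me2 (0%, and 0.279% with the block) and H3K4me3 (0.651%, and 1.7% with the block). At an unadjusted p under 0.05 the count was 1 gene in each, HDAC2 in H3K4me1 (11% of all genes) and H3K4me2 (5.43%) and HDAC3 in H3K4me3 (11.3%). After centring, HDAC3 was higher without overlap in H3K4me3, by 0.09 (SE 0.04, adjusted p = 0.38), against 7.52% of genes (16.7% in either direction). HDAC1 was so in H3K4me2, by 0.25 (SE 0.15, adjusted p = 0.95), against 7% (11.4% in either direction). Before centring the groups overlapped in both. HDAC3 had 5.805, 5.854 and 5.318 kb in DMSO and 6.301, 6.378 and 5.319 kb in Doxycycline. HDAC1 had 10.964, 8.082 and 5.397 kb in DMSO and 15.405, 7.611 and 8.519 kb in Doxycycline. The HDAC1 difference ran from 0.10, without Doxycycline replicate 1, to 0.33 with 1 library left out.

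Near the 9 genes, 117 merged H3K27ac regions and 127 H3K4me1 regions were found. Of these, 2 H3K27ac regions had a peak in every DMSO library and in no Doxycycline library, against 2.7% of all 100382 regions, and 0 the other way, against 0.6%. For H3K4me1 they were 1, against 1.45%, and 0, against 0.313%. Besides the HDAC2 region, these were an H3K27ac region in the last part of RCOR1 (chr14:102726011-102727098), with fold enrichments of 2.13 to 2.59, and an H3K4me1 region in LUZP1 beyond the end of KDM1A (chr1:23101718-23103255), with 1.99 to 2.23. In H3K4me2, H3K4me3 and H3K27me3, 0 regions near the genes separated the treatments, against 0.291%, 0.893% and 0.0386% of all regions with peaks in DMSO alone and 0.18%, 0.45% and 0.42% in Doxycycline alone.

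Distal H3K27ac regions found in 6 of 6 libraries lay near 4 of the 9 genes. The strongest near RCOR1 lay inside the gene at 70.6 kb (chr14:102662313-102664172), with fold enrichments of 3.54, 2.58 and 2.26 in DMSO and 3.14, 3.31 and 2.65 in Doxycycline. Near RCOR2 it was chr11:63957615-63963869, at -43.6 kb and 5212 bp from the start of NAA40, with 2.61, 2.35 and 2.19 against 3.48, 2.60 and 2.58. Near RCOR3 it was chr1:211336423-211338931 within TRAF5, with 2.54, 2.11 and 1.96 against 2.65, 2.35 and 2.22. H3K4me1 was found at each in 6 of 6 libraries, and the DMSO and Doxycycline ranges overlapped at the RCOR1, RCOR2 and RCOR3 regions.

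H3K27me3 regions found in 6 of 6 libraries lay beside the genes. Within 50 kb they were present near KDM1A, HDAC1 and SIN3A and overlapped none of the 9 gene bodies. Inside the bodies the mark was found in fewer libraries. RCOR1 had 1 peak in its body in 4 of 6 libraries, over 0.829, 0 and 0% of the body in DMSO and 1.19, 1.22 and 0.109% in Doxycycline. NCOR1 had body peaks in 3 libraries, RCOR3 in 2, and KDM1A and SIN3A in 1, DMSO replicate 3. Of the 3 near HDAC1, 2 overlapped LCK, a lymphocyte kinase gene, and that farther upstream of KDM1A covered LACTBL1. The covered length near KDM1A was 31.6, 13.1 and 9.63 kb in DMSO and 30.6, 29.6 and 10.1 kb in Doxycycline. The 3 high libraries, DMSO replicate 1 and Doxycycline replicates 1 and 2, were those with long fragment estimates, and the same 3 were the highest near HDAC1 and SIN3A. Of 6 genes tested by limma, 0 were called, as of all genes (0%), and 0 passed an unadjusted p under 0.05 (0.668% of all genes). The largest difference was -1.15 for NCOR1 (SE 0.59, adjusted p = 0.95). Its covered lengths were 0.906, 0 and 0.888 kb in DMSO and 0, 0 and 0.113 kb in Doxycycline, all under the 1000 bases added. Part of the difference came from centring, since the median gene of this mark rose by 0.59 (log2). RCOR2 and HDAC3 had no H3K27me3 within 50 kb in any library.

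Of 44 other genes of these complexes (LSD1 and CoREST partners, and NCOR, SIN3 and NuRD subunits and other deacetylases), H3K4me3 was present at the promoter in 6 of 6 libraries for 44, H3K4me2 for 43, H3K27ac for 42, H3K4me1 for 36 and H3K27me3 for 2. Promoter peaks separated the treatments for 0 of the 44 in every mark. Over all marks and measures 2 were called, 1 of the 36 tested in H3K4me1 width, against 0.0978% of all genes, and 1 of the 43 tested in H3K27ac covered length, against 3.69%. INSM1, a zinc finger repressor gene of neuroendocrine cells, had H3K4me1 peaks of 5.06, 3.35 and 3.56 kb in DMSO and 1.10, 0.685 and 0.461 kb in Doxycycline, a fall of 2.46 on the log2 scale (SE 0.28, adjusted p = 0.049), but an adjusted p of 0.40 with the block, and it was called in 0 of 11 alternative settings. SIN3B, a paralog of SIN3A, had H3K27ac covered lengths of 0.785, 1.01 and 0.594 kb in DMSO and 2.46, 2.89 and 1.24 kb in Doxycycline, 0.93 higher (SE 0.19, adjusted p = 0.040, and 0.021 with the block), called in 4 of 14 alternative settings. Its DMSO lengths lay near or under the 1000 bases added, so the size of this difference depends on that constant.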

How the data were processed

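Peak lists were used for 5 histone modifications of KELLY cells, with 3 libraries per modification and treatment (30 lists), grouped by GEO's labels; 4 input samples entered only through the calls. Per the labels and the methods of the study, the authors aligned reads to hg38 with Bowtie2, kept those of mapping quality 30 or more, and called peaks for each library with MACS2 (2.1.1.20160309 per the file headers) against an input. Headers give broad mode (q 0.05, linked at 0.1) for H3K4me1, H3K27ac and H3K27me3, and narrow mode (p 1e-05) for H3K4me2 and H3K4me3; the methods state q 0.05 for all, and the headers were followed. The input read totals of replicates 1 and 3 were equal in each treatment (81471372 in DMSO, 63437667 in Doxycycline), so their fold enrichments may share an input and may not be independent. The deposited pileup is fragment coverage (signal), the −log10 p-value and q-value columns were deposited as the caller wrote them, and the deposited fold enrichment is the caller's ratio of ChIP to local input. The calling depth was 57002858 to 81056810 reads; no counts per region were used, so values carry no counting interval.

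Gene models came from GENCODE 44 (hg38, as the lists). Promoters were windows reaching 1 kb to each side of all annotated starts, with an overlap of at least 1 bp. Interval functions were checked against bedtools 2.31.1 in 30 of 30 lists. limma 3.58.1 (Benjamini-Hochberg over all genes tested, threshold 0.05) was run on log2 values centred on each list's median, and was tested on simulated data. Promoter measures used genes with a peak in 6 of 6 libraries, and covered length a pseudocount of 1000 bases and genes covered in at least 3 libraries. Single values of 3 against 3 cannot go under an exact permutation p of 0.1. The members and lists were chosen with earlier results of these data known. All 9 members are described, with differences given where called, where groups did not overlap, or where largest for a mark and measure; other corepressor genes are named where called. Some marker genes are not reported here.

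The labels number replicates alike in both treatments. Libraries with the same number deviated together from the group means, with correlations over 0.1 in all 3 pairs for H3K4me1 (0.116 to 0.518), H3K4me3 (0.158 to 0.596), H3K27ac fold enrichment and covered length (0.143 to 0.541) and H3K4me2 covered length, so for these the numbers were taken to pair the libraries, but not in the other measures. The main fits used treatment alone, without this pairing. Standard errors and adjusted p-values given are theirs unless the block or another setting is named. Alternatives were other peak limits, promoters, start sites, list lengths, pseudocounts and filters, no centring, a replicate block, and leaving out libraries. Windows of 10 kb and the gene body, and leaving out libraries in counts of presence, were added after seeing the data.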

Additional observations from a re-analysis of the deposited data

How the results depend on the processing

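Of 967 values recomputed under alternatives, 829 kept their direction and side of the threshold or stayed within the limits set for counts and medians. Leaving out 1 library at a time gave 0 or 1 genes of the 9 called in H3K27ac covered length, with the HDAC2 difference between -0.91 and -0.76; 0 were called, and HDAC2 was at -0.21 and -0.051, with the body extended 10 kb or alone. The replicate block changed the call of none of the 9 genes. Of 227 other values of differences named, 225 kept their direction and none was called; HDAC1 H3K27ac width reversed to -0.0101 at the canonical start alone and HDAC3 H3K27ac covered length to 0.26 over the gene body alone. The cause was not tested. The depth differs between treatments, which limits every weak peak, and the unlike fragment lengths of the H3K27me3 libraries limit that mark.

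Genes with H3K4me1 at the promoter in 3 of 3 Doxycycline libraries were 5 with peaks covering 500 bp and 3 at q 0.001; at q 1e-10 both treatments had 0. Separating regions lost near the genes were 0 in H3K4me1 with 10 kb; with lists of equal length 1 in H3K27ac, 0 in H3K4me1 and 1 in H3K4me2, with 1 H3K4me1 gain; at q 0.001, 0 in H3K27ac, with 1 H3K4me1 gain. Without 1 library the losses were 1 to 5 in H3K4me1, 0 to 1 in H3K4me2 and 2 to 6 in H3K27ac, and the gains 0 to 1 in H3K4me1, H3K27ac and H3K27me3 and 0 to 2 in H3K4me2.

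Counts of all genes called moved more. In fold enrichment, where the main counts were 2 (H3K4me1), 0 (H3K4me2), 11 (H3K4me3) and 199 (H3K27ac), leaving out 1 library gave 0 to 4, 0 to 1, 0 to 30 and 25 to 322. In width, with 12, 59 and 36 for H3K4me1, H3K4me3 and H3K27ac, it gave 0, 5 to 86 and 0 to 64. In covered length, with 2, 0, 116 and 637 for H3K4me1, H3K4me2, H3K4me3 and H3K27ac, it gave 0 to 3, 0 to 2, 8 to 173 and 40 to 563. With the replicate block the counts were 0 for H3K4me3 fold enrichment and 430 for that of H3K27ac, 0, 36 and 0 in width for H3K4me1, H3K4me3 and H3K27ac, and 0, 51, 303 and 1383 in covered length for the 4 active marks. Without centring they were 0 and 6 in fold enrichment for H3K4me3 and H3K27ac, 0, 3 and 13 in width for H3K4me1, H3K4me3 and H3K27ac, and 1, 0 and 325 in covered length. At q 0.001 they were 0 and 0 for H3K4me1 fold enrichment and width, 4 for H3K4me1 covered length and 57 for H3K27ac width. By within-list percentile, fold enrichment gave 0, 0 and 6 for H3K4me1, H3K4me3 and H3K27ac. With a peak in at least 4 of 6 libraries, H3K4me1 gave 1 in fold enrichment and 0 in width; H3K4me1 width gave 2 at the canonical start and 0 with a 2.5 kb promoter. Covered length gave 10 for H3K4me1 with lists of equal length, 4 and 382 for H3K4me1 and H3K27ac with 10 kb, and 1, 70 and 291 for H3K4me1, H3K4me3 and H3K27ac over the body alone.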
